A study of Rattus norvegicus with 22 samples.

Results

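The polyunsaturated fatty acid desaturases and elongases of rat liver were followed here as 7 genes: Fads1, Fads2, Fads3, Elovl1, Elovl2, Elovl3 and Elovl5. Their probes were found by gene name among the non-control probes of the deposited array files, without regard to measured values. This gave 9 probes for the 7 genes, out of 26276 gene names on the array. Elovl1 and Elovl2 had 2 probes each and every other gene had 1.

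Male Sprague-Dawley rats were fed either a semi-synthetic control diet (CD) or the BASE-diet (BD) for 3 or 14 months. In the BASE-diet 6% salmon fat took the place of most of the lard and the share of rapeseed oil was larger, together with 8% extract of linden (Tilia cordata) inflorescences, 8% pumpkin puree and 1% probiotics, so salmon fat was only one of the changes made at once. The groups were CD 3 (5 rats), BD 3 (5 rats), CD 14 (6 rats) and BD 14 (6 rats), with 1 array a rat. The months of feeding and the age of the rat ran together and cannot be told apart. Liver RNA of each rat was labelled with Cy5 and hybridised together with a Cy3-labelled common reference, a pool of liver RNA from 10-week-old rats outside the feeding experiment. The arrays were read as log2 of Cy5 over Cy3, so 0 means the level of the reference pool. The labels gave this dye order for all 22 arrays, whereas the methods named Cy3 for control rats and Cy5 for BASE-diet rats. The labels were followed, there was no dye swap, and a difference between groups has the sign given here only under that reading.

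Mammals make long polyunsaturated fatty acids from the essential precursors linoleic and alpha-linolenic acid, and the liver is the main site. Fads2 places the first new double bond and Fads1 a later one, with elongation by Elovl5 between these steps and by Elovl2 and Elovl5 after them. The end products are arachidonic acid in the omega-6 series and eicosapentaenoic and docosahexaenoic acids in the omega-3 series, the latter being abundant in fish fat. In liver, transcription of Fads1, Fads2 and Elovl5 is driven by SREBP-1 and lowered by dietary polyunsaturated fatty acids. Elovl1 and Elovl3 lengthen saturated and monounsaturated fatty acids and are included as the other members of the elongase family, and Fads3 is the third gene of the Fads cluster.

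The probes decide which part of each transcript was read, and their sequences are shown for the genes the results turn on. Both probes of Elovl2 and Elovl1 are given because they differed in sign in the comparisons of the diets and of the times. Positions are in rat build rn4, as the array files give them, and sequences run 5′ to 3′ on the transcript strand.
Fads1, chr1:212684643-212684702, plus strand: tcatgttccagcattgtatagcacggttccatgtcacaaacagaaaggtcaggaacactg
Fads2, chr1:212514714-212514773, minus strand: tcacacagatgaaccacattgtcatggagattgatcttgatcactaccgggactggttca
Fads3, chr1:212505144-212506430, plus strand: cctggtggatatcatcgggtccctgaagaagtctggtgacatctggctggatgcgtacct
Elovl5, chr8:82947178-82947237, plus strand: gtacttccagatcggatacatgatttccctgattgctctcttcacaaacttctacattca
Elovl2, main probe, chr17:29532543-29532602, plus strand: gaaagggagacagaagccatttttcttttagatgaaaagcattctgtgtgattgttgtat
Elovl2, other probe, chr17:29524801-29524860, plus strand: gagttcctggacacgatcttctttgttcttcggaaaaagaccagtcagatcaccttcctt
Elovl1, main probe, chr5:138912575-138912634, plus strand: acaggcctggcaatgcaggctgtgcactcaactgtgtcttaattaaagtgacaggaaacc
Elovl1, other probe, chr5:138912013-138912072, plus strand: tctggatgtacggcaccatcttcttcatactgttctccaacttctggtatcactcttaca
The 60 bases of the Fads3 probe span 1287 bases of the genome, so its letters lie on both sides of an intron. No run longer than 8 bases was shared between any 2 member probes. The 3 Fads genes are neighbours on chromosome 1. The main probe of Elovl2 starts at base 3651 of its transcript and the other at base 501, and for Elovl1 these starts are 1420 and 858. The main probe of a gene was the one with the higher mean log2 Cy5 signal.

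Liver identity was plain on every array: all 8 hepatocyte markers were well above background on 22 of 22 arrays. Between 52.4% and 93.6% of an array's spots stood well above background, and 4 arrays were over 85% (rat 1 of CD 3, rat 5 of BD 3, and rats 1 and 3 of CD 14). Arrays came from 5 slides, here called A to E, each scanned on 1 day: A held BD 3 rats 3 to 5 with CD 14 rats 1 to 3, B held CD 3 rat 1 with BD 3 rats 1 and 2, C held all BD 14 rats with CD 14 rats 4 and 5, D held CD 3 rats 2 to 4, and E held CD 3 rat 5 with CD 14 rat 6. Slide and group were therefore largely confounded, and the values of the desaturases and Elovl5 are given below also within the slides that held both groups of a comparison. Of 30367 probes, 19434 passed the detection filter and were tested with limma. Across 60 tested markers of 9 liver and neighbouring cell types and of the clock genes, none was called with diet or time. In the comparison of 14 with 3 months all 7 tested Kupffer cell and macrophage markers were higher, 5 of them at an unadjusted p under 0.05 (median difference 0.74 log2 units). Of the lymphocyte markers 6 of 7 were higher (2 at that level, median 0.48), and of the hepatocyte markers 7 of 8 (1 at that level, median 0.21). Bile duct cell markers were higher in 3 of 4 (1 at that level, median 0.69) and adipocyte markers in 3 of 3 (1 at that level, median 0.45). Both of the 2 pancreas markers were lower. Over all genes 13.6% reached that level with time. With diet, 3 of 4 red cell genes were lower on the BASE-diet at an unadjusted p under 0.05 (median -0.75). In whole liver, fewer cells of a type and less RNA per cell cannot be told apart.

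Elovl3 could not be compared between groups. Its probe passed the detection flag for 2 of 5 CD 3 rats, 4 of 5 BD 3 rats, 2 of 6 CD 14 rats and 1 of 6 BD 14 rats, which left it outside the tested set. Its Cy5 signal ran from 2.16 to 2126, with the highest values in rat 1 of CD 3 (2126), rat 3 of CD 14 (458) and rat 5 of BD 3 (333). These 3 rats were all on arrays with over 85% of spots well above background, and the Cy3 signal of the probe moved with Cy5 over the 21 arrays with a value (r = 0.95 after quantile normalisation, a description across arrays that share slides). No level, order or fold is given for it.

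None of the 6 tested genes was called at an adjusted p under 0.05 in any of the 8 tests fitted, in which the share of all probes called was 0% for BD 3 against CD 3, 0% for BD 14 against CD 14, 0% for CD 14 against CD 3, 0% for BD 14 against BD 3, 0.00515% for the BASE-diet over both times, 0.221% for 14 against 3 months over both diets, 0% for the interaction of diet and time and 0.0257% for any difference among the 4 groups. At an unadjusted p under 0.05 the member counts were 1 of 6 for BD 3 against CD 3 (7.11% of all probes), 0 for BD 14 against CD 14 (4.6%), 1 for CD 14 against CD 3 (10.1%) and 0 for BD 14 against BD 3 (7.44%). The counts were 1 for diet over both times (7.19%), 3 for time over both diets (13.6%), 0 for the interaction (4.8%) and 1 for any difference (10.5%). The gene behind the diet count was Elovl5, and those behind the time count were Fads1, Fads2 and Fads3. In all 24 pairings of a gene with 2 groups the groups overlapped, where 0.715%, 0.763%, 0.502% and 2.31% of all probes did not in BD 3 against CD 3, BD 14 against CD 14, CD 14 against CD 3 and BD 14 against BD 3. The F test of the methods with Tukey's comparisons also called no member. The median difference of the 6 genes was 0.17 for diet, beside 0.05 over all probes, and 0.06 for time, beside 0.06. The genes are therefore described by their values, none of which passed the adjusted test.

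**Figure D1:**
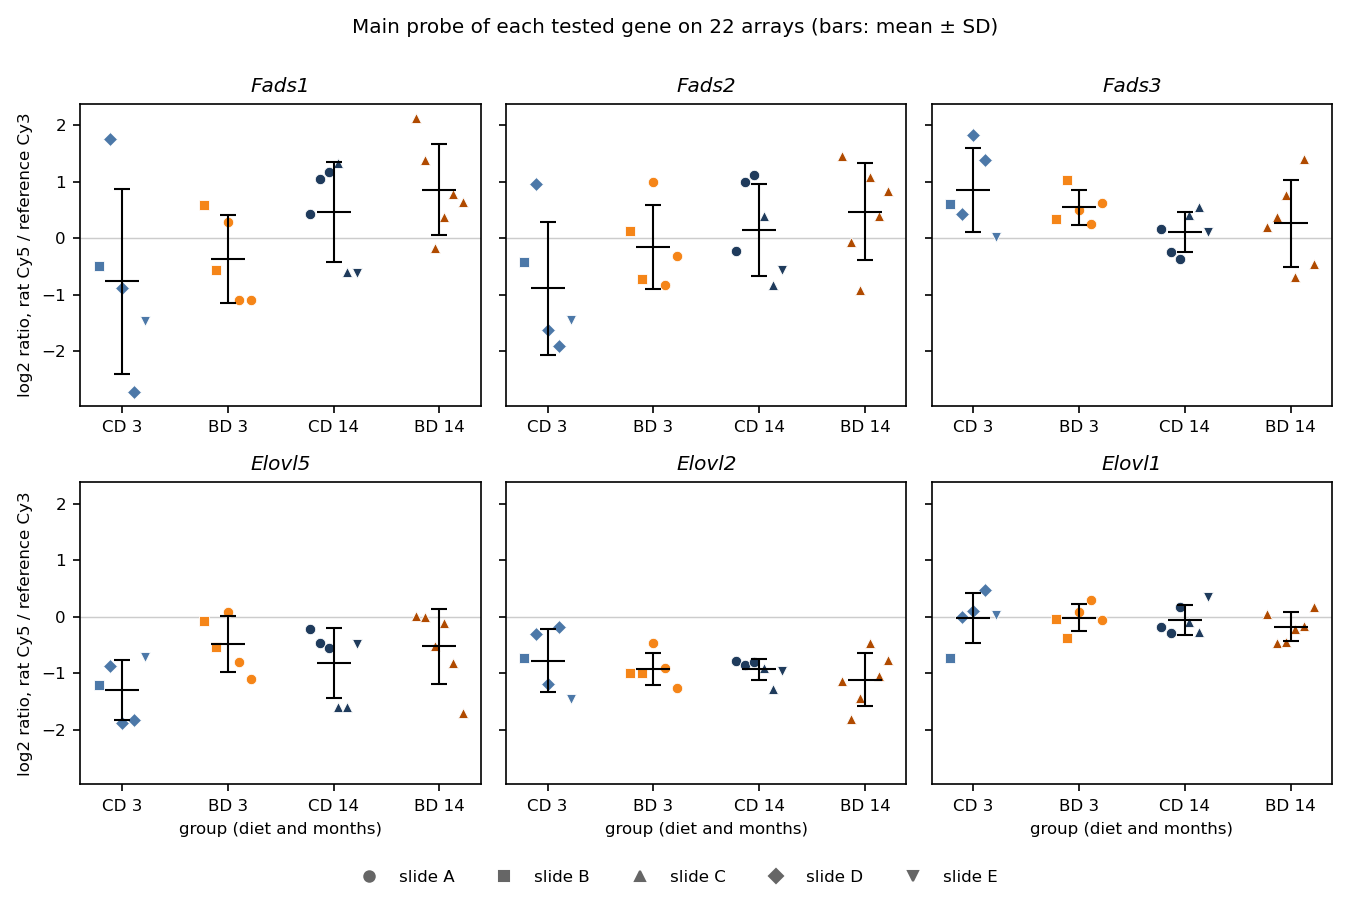
Log2 ratio of Cy5 (rat) to Cy3 (reference pool) for the main probe of the 6 tested genes in each rat, by group, with the group mean as a line and 1 SD as the bar. The groups overlap in every panel. Fads1 and Fads2 sit lowest in CD 3, Elovl5 and Elovl2 lie mostly below the reference, and Elovl1 lies near 0.

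Fads1, the desaturase that makes arachidonic and eicosapentaenoic acid, had its lowest mean in CD 3 and its highest in BD 14. In CD 3 its log2 ratios in rats 1 to 5 were -0.49, 1.75, -0.88, -2.72 and -1.46. In BD 3 they were 0.59, -0.57, 0.29, -1.09 and -1.09. In CD 3 rat 2 stood far above the other 4, and BD 3 lay within the CD 3 range. In CD 14 the lowest, median and highest values were -0.62, 0.73 and 1.33, and in BD 14 they were -0.17, 0.72 and 2.14. All 6 CD 14 rats were above the CD 3 median and all 6 BD 14 rats above the BD 3 median, 4 of them above every BD 3 rat. The order of the group means was CD 3 (-0.76 ± 1.64, SD), BD 3 (-0.37 ± 0.78), CD 14 (0.46 ± 0.88) and BD 14 (0.86 ± 0.81), and neighbouring groups in that order overlapped. Over both diets the ratio of Fads1 was 1.23 log2 units higher at 14 than at 3 months (SE 0.42, 95% interval 0.35 to 2.11, a ratio of 2.34, limma unadjusted p = 0.00864, adjusted p = 0.228). The difference was 1.22 under the control diet (adjusted p = 0.506) and 1.23 under the BASE-diet (adjusted p = 0.676), and the interaction was 0.01 (SE 0.85, adjusted p = 0.999). This near equality depended on the processing: in Cy5 alone the values were 1.96 and 0.80 with an interaction of -1.17 (unadjusted p = 0.0969), and leaving out 1 rat moved the interaction between -0.61 and 0.51. For diet over both times it was 0.39 (SE 0.42, interval -0.49 to 1.28, adjusted p = 0.812), which leaves differences of either sign possible. Leaving out 1 rat moved this diet difference between 0.15 and 0.71.

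Single CD 3 rats moved the time difference of Fads1. Leaving out 1 rat at a time gave 0.98 (without CD 3 rat 4) to 1.54 (without CD 3 rat 2). Without CD 3 rat 2 the adjusted p was 0.0542, the difference under the control diet was 1.85 (adjusted p = 0.132) and the BASE-diet difference at 3 months was 1.01 in place of 0.39. Without CD 3 rat 4 the latter was -0.10, and with slide as a block it was 0.08, so the direction of Fads1 with diet at 3 months rested on single rats. Slides with both groups of a comparison gave 0.84 for CD 14 minus CD 3 on slide E (1 array each), 0.51 for BD 3 minus CD 3 on slide B (2 arrays against 1) and 0.50 for BD 14 minus CD 14 on slide C (6 against 2). With slide as a block the time difference was 1.61 (unadjusted p = 0.0861). Within groups Fads1 followed the mean log2 ratio of the 8 hepatocyte markers (r = 0.73 over 22 arrays, after removal of group means). It ran against the endothelial cell markers (r = -0.58) and against the Cy3 signal of its own probe, the denominator of the ratio (r = -0.55). In CD 3 rat 4 had both the lowest Fads1 ratio and the lowest hepatocyte mean (-1.41), and rat 2 had the highest of both (0.36). The hepatocyte mean ran from -1.41 to 0.36 in CD 3, from -0.32 to 0.01 in BD 3, from -0.41 to 0.23 in CD 14 and from -0.52 to 0.25 in BD 14. The part of hepatocyte or Kupffer cell RNA in the Fads1 difference was not tested.

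Fads2, the enzyme of the first desaturation step, showed the same order of groups on a narrower scale. In CD 3 its log2 ratios in rats 1 to 5 were -0.41, 0.96, -1.63, -1.91 and -1.45, and in BD 3 they were 0.13, -0.73, 1.00, -0.83 and -0.32. All 5 BD 3 rats were above the CD 3 median, but only 1 was above CD 3 rat 2. In CD 14 the lowest, median and highest values were -0.83, 0.09 and 1.12, and in BD 14 they were -0.92, 0.62 and 1.46. Mean ratios were -0.89 ± 1.18 (CD 3), -0.15 ± 0.75 (BD 3), 0.15 ± 0.82 (CD 14) and 0.47 ± 0.86 (BD 14), with every neighbouring pair overlapping. Over both diets the ratio was 0.83 higher at 14 months (SE 0.36, interval 0.07 to 1.59, unadjusted p = 0.0330, adjusted p = 0.329). With slide as a block this was 1.12 (limma unadjusted p = 0.156), and in Cy5 alone it was 0.49 (limma unadjusted p = 0.154). The BASE-diet difference was 0.74 at 3 months (SE 0.54, adjusted p = 0.837), 0.32 at 14 months (SE 0.49, adjusted p = 0.959) and 0.53 over both (SE 0.36, interval -0.23 to 1.29, adjusted p = 0.739). Leaving out 1 rat moved the 3-month value between 0.45 and 1.20 and the 14-month value between 0.12 and 0.60. As for Fads1, CD 3 rat 2 lowered the values that involve CD 3: without it Fads2 differed by 1.06 with time (adjusted p = 0.0978) and by 1.20 with diet at 3 months. With slide as a block the 3-month difference was 0.15, and in Cy5 alone the 14-month difference was -0.21, of the other sign. Within slides Fads2 in BD 3 was 0.11 above CD 3 on slide B, in BD 14 it was 0.69 above CD 14 on slide C, and in CD 14 it was 0.89 above CD 3 on slide E. Fads2 too followed the hepatocyte markers within groups (r = 0.51 over 22 arrays). It ran against the lymphocyte (r = -0.44) and endothelial cell markers (r = -0.39), and against the Cy3 signal of its own probe (r = -0.44). The part of these in its difference was not tested.

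**Figure D2:**
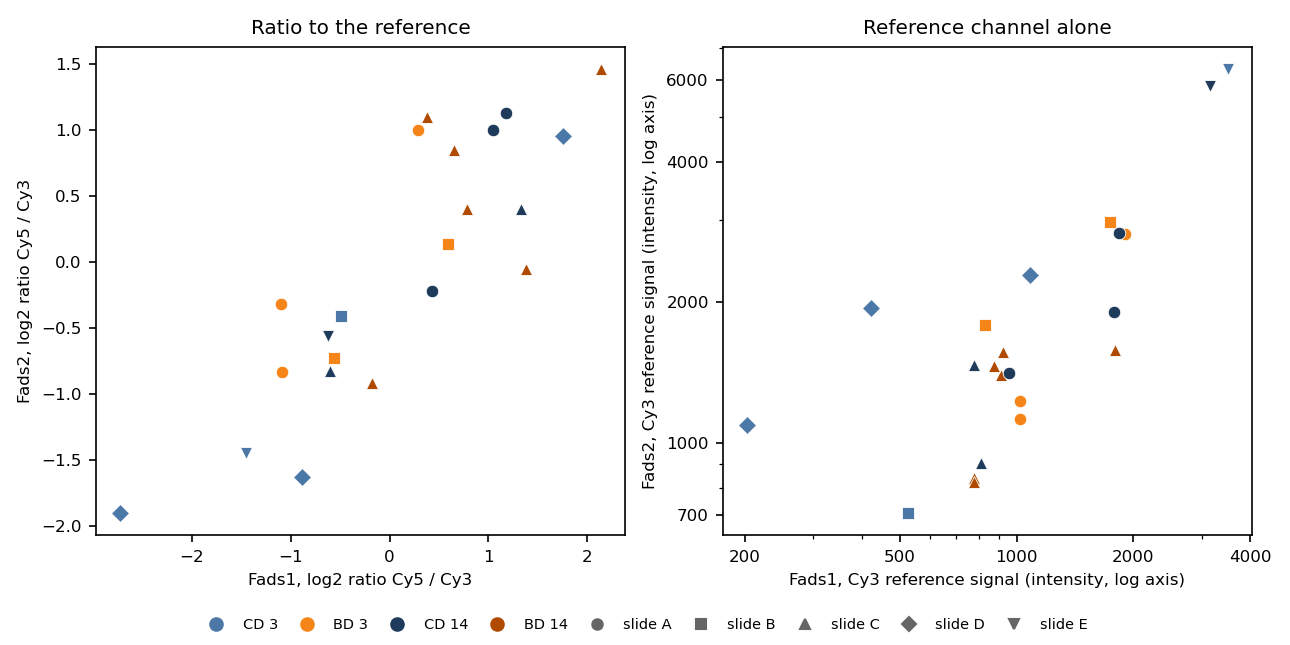
Fads1 against Fads2 in the 22 rats, by group. The left panel plots log2 ratios to the reference pool and the right panel the Cy3 signal of the reference on log axes, with colour for the group and shape for the slide. Both genes are high on the same arrays in both panels, and in the reference channel the 2 arrays of slide E lie highest although every array carries the same pool.

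Fads1 and Fads2 varied together from rat to rat. After removal of group means their log2 ratios correlated with r = 0.82 over 22 arrays, the highest of the 15 pairs of tested members, and with r = 0.83 when slide was also removed. The next pair was Fads2 with Elovl2 at 0.53, and the lowest was Fads3 with Fads2 at -0.50. Fads1 and Elovl5 had r = 0.40, and Fads2 and Elovl5 had r = 0.35. The Cy5 channel alone gave r = 0.88 for Fads1 with Fads2, but the Cy3 channel gave 0.82 although it held the same RNA pool on every array. These are descriptions of arrays that share slides and a reference. Both genes were also among the more variable probes: the residual SD of the log2 ratio was 1.06 for Fads1, above that of 95.7% of probes, and 0.907 for Fads2, above 90.0%, where the median probe had 0.529.

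The reference channel of the 2 desaturases was itself uneven. The Cy3 signal of Fads1 ran from 203 to 3494 over the arrays, a 17.2-fold range, beside 164 to 4027 in Cy5. For Fads2 the Cy3 signal ran from 706 to 6315, an 8.95-fold range. Elovl1 had the narrowest Cy3 range among the main probes, 2203 to 4831 or 2.19-fold, and Elovl5 had 3.20-fold. After quantile normalisation the Cy3 spread of Fads1 was wider than that of 93.4% of probes and that of Fads2 wider than 90.6%. Slides accounted for 62.3% of the variance of log2 Cy3 of Fads1 and 60.1% of that of Fads2 (59.3% and 56.4% after quantile normalisation). Before that normalisation the share was 72.1% for Fads3, 61.2% for Elovl5, 45.9% for Elovl2 and 21.1% for Elovl1, so it was not particular to these 2 genes. Between 14 and 3 months over both diets the Cy3 signal differed by 0.16 for Fads1 and -0.33 for Fads2, neither of them called. For Fads1 this averaged 0.74 under the control diet and -0.43 under the BASE-diet (interaction -1.18, unadjusted p = 0.0875, adjusted p = 0.294). In Cy5 alone the time difference was 1.38 for Fads1 (adjusted p = 0.0729) and 0.49 for Fads2. For the BASE-diet at 3 months the Cy3 signal of Fads1 was 0.88 higher and its Cy5 signal 1.24 higher, so the 2 channels moved the same way and the ratio held only part of the Cy5 difference.

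Because Fads1 and Fads2 moved together, the 300 bases around their start sites (250 before, 50 after) were read from the RefSeq promoter table for build GRCr8, which held all 7 members. Capitals mark matches to the motifs searched.
Fads1, chr1:216252442-216252741, plus strand: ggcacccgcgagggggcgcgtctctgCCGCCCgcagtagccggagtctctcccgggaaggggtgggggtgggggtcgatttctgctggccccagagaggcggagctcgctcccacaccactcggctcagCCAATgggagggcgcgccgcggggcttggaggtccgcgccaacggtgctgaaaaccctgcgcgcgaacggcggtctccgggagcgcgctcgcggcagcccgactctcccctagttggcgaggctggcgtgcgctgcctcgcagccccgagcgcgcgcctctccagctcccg
Fads2, chr1:216171984-216172283, minus strand: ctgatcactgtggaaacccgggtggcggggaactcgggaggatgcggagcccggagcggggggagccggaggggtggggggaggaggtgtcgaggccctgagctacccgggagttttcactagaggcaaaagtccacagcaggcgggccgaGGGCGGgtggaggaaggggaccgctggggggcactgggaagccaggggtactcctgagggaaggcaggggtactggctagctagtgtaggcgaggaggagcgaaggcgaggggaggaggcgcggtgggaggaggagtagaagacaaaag
The motifs were searched on both strands. The CCAAT box (CCAAT, in 37.5% of 33469 rat promoters of this length) was found in Fads1 at -121 and not in Fads2. The GC box (GGGCGG, in 33.1%) was found 1 time in each. Neither window held the E-box CACGTG (6.42%) or the classical sterol regulatory element (in 0.269%), and the latter was in no member's window. A match is a description of the letters, and its absence says only that these letters are not in this window.

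Fads3, the third gene of the cluster, ran the other way in time. In CD 3 its log2 ratios in rats 1 to 5 were 0.61, 0.42, 1.83, 1.39 and 0.02, and in BD 3 they were 0.35, 1.04, 0.50, 0.25 and 0.62. The lowest, median and highest values were -0.36, 0.14 and 0.55 in CD 14 and -0.69, 0.29 and 1.40 in BD 14. CD 3 rat 3 held the highest value, followed by a BD 14 rat and CD 3 rat 4, and no CD 14 rat was above the CD 3 median. Over both diets Fads3 was lower at 14 months by -0.51 log2 units (SE 0.24, interval -1.02 to -0.01, unadjusted p = 0.0458, adjusted p = 0.357), with -0.74 under the control diet (adjusted p = 0.472) and -0.28 under the BASE-diet (adjusted p = 0.864). With slide as a block these were -0.46 over both diets (unadjusted p = 0.339), -0.20 under the control diet and -0.72 under the BASE-diet. On slide E, with 1 rat of each group, CD 14 was 0.10 above CD 3, the opposite sign. The diet difference was -0.30 at 3 months, 0.16 at 14 months and -0.07 over both (SE 0.24, interval -0.58 to 0.43). Both signs turned within slides, with 0.08 on slide B at 3 months and -0.22 on slide C at 14 months. With slide as a block the values were 0.30, -0.22 and 0.04, so Fads3 had no settled direction with diet.

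**Figure D3:**
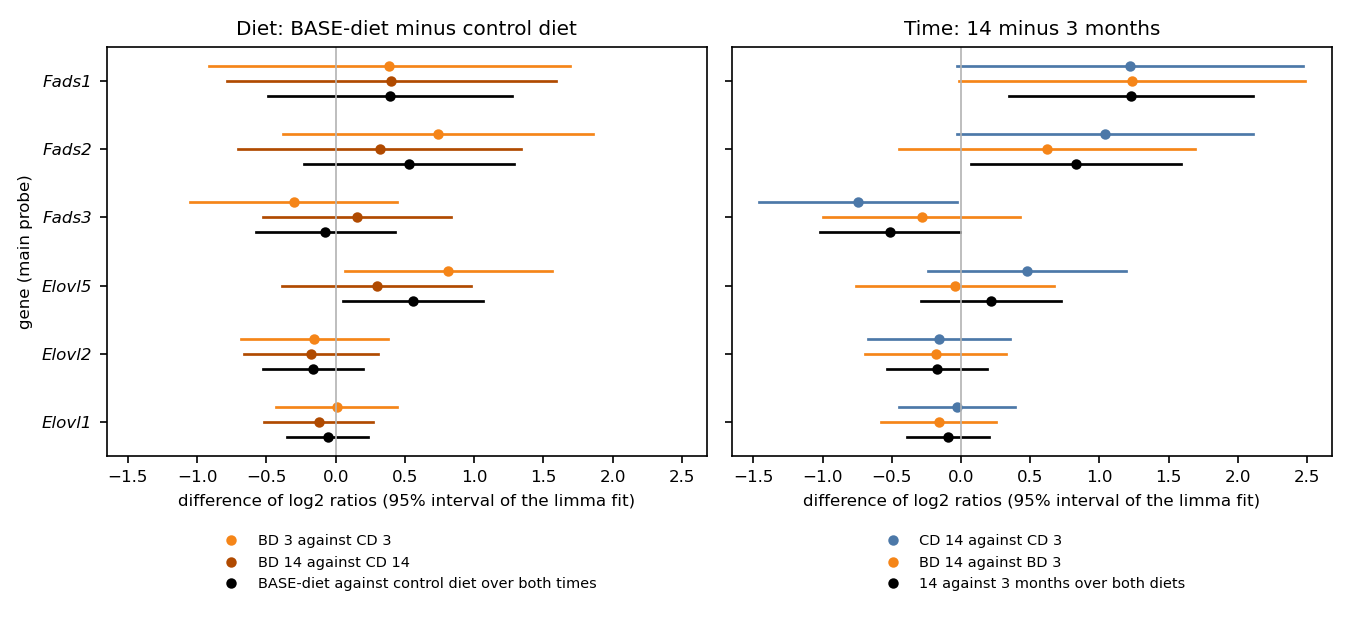
Differences in log2 ratio between groups for the main probe of the 6 tested genes, with diet on the left, time on the right and bars for the 95% intervals from limma. Most intervals include 0. Those that do not belong to Elovl5 with diet, and Fads1, Fads2 and Fads3 with time, none of which passed the adjusted test.

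Elovl5, the elongase that acts between the 2 desaturation steps, was the one member with an unadjusted p under 0.05 for diet, and it was higher on the BASE-diet. In CD 3 its log2 ratios in rats 1 to 5 were -1.22, -0.87, -1.88, -1.82 and -0.71. In BD 3 they were -0.07, -0.53, 0.08, -0.80 and -1.11. All 5 BD 3 rats were above the CD 3 median and 3 of them above every CD 3 rat. In CD 14 the lowest, median and highest values were -1.61, -0.52 and -0.22, and in BD 14 they were -1.70, -0.32 and 0.02. At 14 months 3 of 6 BD 14 rats were above every CD 14 rat and 1 was below all of them. From lowest to highest, group means were -1.30 ± 0.54 in CD 3, -0.82 ± 0.62 in CD 14, -0.53 ± 0.66 in BD 14 and -0.49 ± 0.50 in BD 3, and neighbouring groups in that order overlapped. BD 3 was 0.81 above CD 3 (SE 0.36, interval 0.07 to 1.56, a ratio of 1.76, unadjusted p = 0.0342, adjusted p = 0.663). BD 14 was 0.30 above CD 14 (SE 0.33, interval -0.39 to 0.98, adjusted p = 0.952). Leaving out 1 rat moved the 14-month difference between 0.14 and 0.53 and the 3-month difference between 0.67 and 0.97. Over both times the BASE-diet difference was 0.56 (SE 0.24, interval 0.05 to 1.06, unadjusted p = 0.0329, adjusted p = 0.660). The interaction was -0.52 (SE 0.49, adjusted p = 0.999), so the differences at 3 and 14 months were not shown to differ. With time over both diets Elovl5 differed by 0.22 (SE 0.24, adjusted p = 0.744), and by 0.89 with slide as a block (unadjusted p = 0.0579). On slide E CD 14 was 0.22 above CD 3.

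The direction of the Elovl5 difference with diet was the same within slides. BD 3 was 0.92 above CD 3 on slide B (2 arrays against 1), and BD 14 was 1.08 above CD 14 on slide C (6 against 2, unadjusted p = 0.0384, adjusted p = 0.419 in a fit of that slide alone). The latter is over 3 times the value from all CD 14 rats. The other 4 CD 14 rats were on slides A and E, and the part of slide and of single rats in this cannot be told apart. With slide as a block the diet difference was 0.84 (unadjusted p = 0.0204, adjusted p = 0.526). In Cy5 alone Elovl5 differed by 1.16 at 3 months (adjusted p = 0.136) and by 0.16 at 14 months. The Cy3 signal of the probe was 0.37 higher in BD 3 than CD 3, though it held the same pool. Elovl5 also varied with the desaturases in Cy5 alone (r = 0.62 with Fads1 and 0.71 with Fads2 after removal of group means), but the Cy3 channel with its single pool also gave 0.52 and 0.27.

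Elovl2, the elongase of the steps that lead to docosahexaenoic acid, had a mean below the reference pool in all 4 groups. With the main probe the ratios in rats 1 to 5 were -0.74, -0.31, -1.19, -0.19 and -1.47 in CD 3 and -1.01, -0.997, -0.47, -0.92 and -1.26 in BD 3. The lowest, median and highest values were -1.29, -0.89 and -0.79 in CD 14 and -1.81, -1.10 and -0.46 in BD 14. With this probe every rat was below the reference level. Group means lay between -0.78 ± 0.55 in CD 3 and -1.11 ± 0.48 in BD 14. The diet difference was -0.17 (SE 0.17, interval -0.53 to 0.20, adjusted p = 0.809) and the time difference -0.17 (interval -0.53 to 0.19, adjusted p = 0.714). The other probe also lay below the reference, with means of -1.64 (CD 3), -1.21 (BD 3), -1.55 (CD 14) and -1.05 (BD 14), but its diet difference was 0.46 (SE 0.25, unadjusted p = 0.0753, adjusted p = 0.695). For time over both diets it gave 0.13 (adjusted p = 0.870). The 2 probes thus differed in sign for diet and for time, and their values within groups correlated weakly (r = 0.25 over 22 arrays). The direction of Elovl2 with diet or time is not settled by these arrays.

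Elovl1, which makes very long saturated and monounsaturated chains, was the least variable member by its main probe. Its group means with the main probe were -0.03 ± 0.44 (CD 3), -0.02 ± 0.24 (BD 3), -0.05 ± 0.26 (CD 14) and -0.18 ± 0.26 (BD 14), all near the level of the reference. Its residual SD of 0.305 was above that of 15.5% of probes. Within groups its ratio ran against the share of non-uniform spots (r = -0.52 over 22 arrays) and of spots well above background (r = -0.50), and with the endothelial cell markers (r = 0.50), whose part in its values was not tested. The diet difference was -0.06 (SE 0.14, interval -0.35 to 0.24, a ratio of 0.78 to 1.18) and the time difference -0.09 (interval -0.39 to 0.20). With slide as a block the sign over both times turned, to 0.27. At 3 months the difference was 0.01 and with slide as a block 0.53 (unadjusted p = 0.0588), and slide B gave 0.53. The other probe gave 0.27 for diet (SE 0.25, adjusted p = 0.778) and 0.08 for time (adjusted p = 0.930), both opposite in sign to the main probe. It was more variable, with a residual SD of 0.594 and an SD of 1.15 in CD 3. The values of the 2 probes within groups had r = -0.02 over 22 arrays.

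The members were then set beside lists of 92 other gene symbols, which included former names of some of the same genes. The lists covered fatty acid desaturation, elongation, activation, peroxisomal shortening, eicosanoid synthesis and their regulators. Of these symbols 82 were on the array, and 70 genes were tested. None was called with diet or time. In the diet comparison over both times 10 of the 70 were higher at an unadjusted p under 0.05 and 0 lower, 14.3% beside 6.81% of all genes, with a median difference of 0.20 beside 0.04. At 3 months alone the count was 5, 7.14% beside 6.94% of all genes, and at 14 months it was 6, 8.57% beside 4.1%. These lists were chosen with earlier results of the data known. With time 9 were higher and 2 lower at that level, 15.7% beside 13.6% of all genes.

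The peroxisomal genes, whose products shorten very long polyunsaturated chains in the last step to docosahexaenoic acid and are targets of PPARα, were the list with most such genes. Of 11 tested, 10 had a positive diet difference, beside 9518 of 17085 genes in all, and 4 had an unadjusted p under 0.05 (36.4%, beside 6.81% of all genes), with a median of 0.39 and a lowest adjusted p of 0.579. At 3 months 1 of the 11 had such a p (9.09%, beside 6.94% of all genes), and at 14 months 4 had it (36.4%, beside 4.1%). Ech1, an enoyl-CoA isomerase, differed by 0.82 (SE 0.25, adjusted p = 0.579), with means of -0.80 (CD 3), -0.30 (BD 3), -1.33 (CD 14) and -0.18 (BD 14). Acaa1b, a peroxisomal thiolase, differed by 0.76 (adjusted p = 0.579). Hsd17b12, the ketoreductase of the elongation cycle, differed by 0.92 (SE 0.31, unadjusted p = 0.00725, adjusted p = 0.590), with means of -0.81 (CD 3), 0.23 (BD 3), -0.21 (CD 14) and 0.59 (BD 14). Fabp1, the liver fatty acid carrier, differed by 0.39, and Hnf4a, a hepatocyte transcription factor, by 0.52. In the eicosanoid list Alox5ap, which presents arachidonic acid to 5-lipoxygenase, differed by 0.81 and Ephx1, an epoxide hydrolase, by 0.85. The value of Ephx1 was 0.50 without CD 3 rat 4, the rat with the lowest hepatocyte mean, and without the same rat Hsd17b12 differed by 0.61 and Acaa1b by 0.55. Fads6, a desaturase relative of unsettled function, differed by 0.67. None of the genes named here had an adjusted p under 0.579. The lists of SREBP regulators and of electron donors of the desaturases held no gene with an unadjusted p under 0.05 for diet.

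In time the largest differences in the lists, named after their values were seen, were in the synthesis of monounsaturated fatty acids. Scd, the stearoyl-CoA desaturase of liver, was 2.24 higher at 14 months (adjusted p = 0.240), Scd2 2.12 higher (adjusted p = 0.217), Scd4 1.65 higher (adjusted p = 0.241) and Elovl6, the elongase of palmitate, 1.99 higher (adjusted p = 0.222). Acsl5, which activates fatty acids, was 0.74 higher (adjusted p = 0.122). Some pathway genes varied with Fads1 and Fads2 from rat to rat. After removal of group means Fads2 correlated with Elovl6 (r = 0.73), Lpcat3, which puts arachidonic acid into phospholipids (0.73), Scd (0.72) and Scd4 (0.72). Fads1 correlated with Lpcat3 (0.83), Cyb5b (0.79) and Acsl5 (0.74). Other genes of the same lists ran against Fads1: Hacd1 of the elongation cycle (-0.79), Pparg (-0.70), Cyp2j4 (-0.60) and Ptges3 (-0.59). Hacd1 also ran against Fads2 (-0.54). Of the 70 pathway genes 12 had r over 0.5 with Fads2, beside 5.09% of all genes, and 19 had r over 0.5 with Fads1, beside 15.1% of all genes. For Elovl5 the number was 5 of 70 beside 6.59%, with Tecr, the last reductase of the elongation cycle, highest at 0.63. It was 4 of 70 for Elovl1 beside 12.3%, and 0 of 70 for Fads3 beside 1.57% and for Elovl2 beside 0.958%.

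Over 16485 genes with values on all 22 arrays, the genes most like each member outside the family were named by the same within-group r. For Fads2 they were Dbi, the acyl-CoA binding protein (0.86), Dpt (0.86) and Gsta3, a glutathione transferase (0.84). Fads3 was nearest to Lmna (0.76), a lamin, and Elovl2 to Ptprf (0.73), Mcrip2 (0.72) and Slc2a5 (0.71), a fructose transporter. Elovl5 was nearest to entries without a gene symbol and to C2cd4b (0.89), and Elovl1 to Nudt9 (0.93), Med21 (0.90) and Rtcb (0.89). The 3 entries most like Fads1 (0.92 to 0.94) had no gene symbol. All of these values come from the same 22 arrays and slides.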

How the data were processed

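Liver RNA of 22 male rats was measured on 2-colour Agilent rat expression arrays of 62976 spots, 1 array a rat. The deposited files were scanner output of Feature Extraction, version 10.10.1.1 per the file headers and 10.7.3.1 per the labels. They held processed Cy5 and Cy3 signals (intensity, background-subtracted and dye-normalised by the software) and, per the file headers, log10 of Cy5 over Cy3, converted here to log2. Array number limits the precision, and a ratio shows change against the reference pool only.

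Spots that were controls or flagged as non-uniform were dropped, and the remaining spots of a probe were averaged. The 19434 of 30367 probes detected above background in Cy5 on all arrays of 1 or more groups were fitted with limma 3.58.1 in R 4.3.3 (4 group means, Benjamini-Hochberg adjustment over all probes, threshold 0.05), and tables were made with Python 3.11.15, numpy 2.4.6, pandas 2.3.3 and matplotlib 3.10.9. The fit was tested on simulated data. Rats are separate animals per the labels. Genes were named from the files, with 18005 probes named through RefSeq. Members and lists were chosen with earlier results of these data known. The genes named outside the family were, per list, up to 3 with the lowest unadjusted p under 0.05 for diet, and per member the 3 with the highest within-group correlation. One gene that this rule names is not reported here. Time-named genes were chosen after their values were seen. Alternatives were background correction, normalisation, filter, weights, slide or replicate block, the methods' F test and leaving out each array. The series table of the authors' log2 values held no member probe and was not used.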

Additional observations from a re-analysis of the deposited data

Results flagged for a closer look

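Of 24 combinations of a tested gene and a group, the 2 groups of 5 and the 2 groups of 6 rats being checked for 6 genes each, 1 held a sample far from the rest by Dixon's criterion, where chance gives about 1 in 20. Elovl2 in CD 14 rat 5 had a log2 ratio of -1.29, with the nearest other rat at -0.97, a gap of 0.64 of the range of the 6 rats. It was the lowest CD 14 value, but lay above the lowest BD 14 value of -1.81, and the diet difference of Elovl2 was not called with or without it.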

How the results depend on the processing

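No tested member was called in any comparison under any of the 287 alternative counts, leaving out each array in turn included, where the lowest and highest counts were 0 and 0. The lowest adjusted p under any alternative was 0.0542, for Fads1 with time without CD 3 rat 2. Of 1464 alternative values of single differences 16 moved by the residual SD or more and 73 had another sign, 33 of them among the 924 that left out 1 array; the cause was not tested. Fads1 with time stayed at an unadjusted p under 0.05 in 22 of 22 fits that left out an array, Elovl5 with diet in 13, Fads2 with time in 13 and Fads3 with time in 9. Without the 4 arrays with over 85% of spots well above background, an alternative chosen after seeing the data as were slide C alone and the Cy3 channel alone, the Fads1 time difference was 1.09 and the Elovl5 diet difference 0.75. Over all probes the number called with time went from 43 to 94 in Cy5 alone and to 0 with slide as a block, and in BD 3 against CD 3 from 0 to 221 in Cy5 alone. Without CD 3 rat 5 the number was 93 for BD 3 against CD 3 and 205 for CD 14 against CD 3, and with array weights 99 for BD 14 against BD 3, where the fit reported gave 0.

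Rat numbers were shared between groups. Of 31 same-numbered pairs 8 had a correlation over 0.1, in a range of -0.27 to 0.29 with a median of -0.01. Pairs with different numbers were not compared, so this cannot show whether the numbers mark a pairing. With the replicate block 0 members were called in each comparison, and the number of probes called with time over both diets went from 43 to 9. The authors' deposited values could not be used as an alternative, since they held 0 of the 9 member probes. Signal over background limits Elovl3, which was well above background on 9 of 22 arrays.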
